A study of Mus musculus with 37 samples.

Results

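The 10 genes described here mark the B lineage, and were taken by ID: EBF1 (ENSG00000164330), PAX5 (ENSG00000196092), BACH2 (ENSG00000112182), BCL11A (ENSG00000119866), FOXP1 (ENSG00000114861), IKZF3 (ENSG00000161405), CD79A (ENSG00000105369), CD79B (ENSG00000007312), CD74 (ENSG00000019582) and BANK1 (ENSG00000153064). They are 10 of the 60708 IDs in the count table, and they were read as a measure of B cell content and state in splenocyte cultures. Splenocytes of wild-type (WT) FVB mice, the only genotype used, were held for 48 h with RAW264.7 cells (a line of mouse macrophage-like cells) or with the medium those cells had conditioned. The RAW264.7 cells had been kept for 72 h at 21% oxygen (normoxia) or 1% oxygen (hypoxia), with or without SPP1 (osteopontin, a secreted ligand of integrins and of CD44) at 1 µg/mL. Splenocytes received the conditioned medium (medium groups), the unwashed RAW264.7 cells (cells groups) or the RAW264.7 cells after a wash (washed groups), which with oxygen and SPP1 made 12 groups. The thirteenth group was splenocytes labelled naive, and their label names neither RAW264.7 cells nor their medium. Brefeldin A, which blocks protein secretion, went into the cultures at 48 h. Whether the naive cells were kept in culture for that time was not given in the sources used here. There were 2 naive, 11 medium, 12 cells and 12 washed libraries, with 3 libraries in each of 11 groups and 2 in the naive and in the medium normoxia group without SPP1.

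B cells are the antibody-forming lymphocytes and a large population of the spleen. EBF1 and PAX5 are the transcription factors that commit a progenitor to the B lineage and keep it there, and they switch on the genes of the B cell receptor complex. CD79A and CD79B are the signalling subunits of that complex. BACH2 is a repressor that holds back plasma cell differentiation and is also used by T cells. BCL11A and FOXP1 are factors of early B cell development, and FOXP1 is also found in naive T cells and many other tissues. IKZF3 (Aiolos) is an Ikaros family factor of mature lymphocytes, CD74 is the invariant chain that chaperones MHC class II molecules in B cells, macrophages and dendritic cells, and BANK1 is a scaffold of B cell receptor signalling.

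CD79A is a textbook target of EBF1 and PAX5, so its mouse promoter is printed as an example of the link between these members. The window runs from 250 bases before to 50 bases after the gene start, at chr7:24897247-24897546 on the plus strand of GRCm38.p6, as given by RefSeq. The capitals mark its 1 match to CNNGGGAAT, the right-hand side of the EBF1 motif.

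Cd79a: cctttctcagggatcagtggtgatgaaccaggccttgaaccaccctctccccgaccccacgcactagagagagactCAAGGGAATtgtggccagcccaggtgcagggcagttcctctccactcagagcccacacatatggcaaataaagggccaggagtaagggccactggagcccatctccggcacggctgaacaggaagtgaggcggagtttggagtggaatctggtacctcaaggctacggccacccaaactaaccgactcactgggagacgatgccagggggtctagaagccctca

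The match starts 174 bases before the gene start. Both strands were searched for CNNGGGAAT and for CCCNNGGGA, the core of the same palindrome, which overlaps the first motif in its letters, and both were chosen after the windows had been seen. CNNGGGAAT occurred in 3.30% of 32851 mouse promoters of the same length, and in 3 of the 10 windows of the 7 members with a window, which belong to Cd79a, Ebf1 and Foxp1. CCCNNGGGA occurred in 6.56% of all promoters and in 1 of those 10 windows, of Foxp1. Windows were matched by the mouse spelling of each symbol, and Cd79b, Cd74 and Ikzf3 had none. A match of letters is a description of the window and not a bound site.

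The libraries were mouse, but the reads had been aligned to the human genome GRCh38, so each ID stands for the mouse reads that matched that human gene. Totals ran from 631574 to 1337314 counts per library, with a median of 1063211. Of the 22657 IDs with a count, 5193 passed the filter on low counts and were tested. On principal components of log2 CPM, the TMM-scaled count relative to the library total, 4 libraries stood apart on the second: replicate 1 of washed hypoxia with SPP1, replicates 1 and 2 of washed normoxia with SPP1, and replicate 2 of cells hypoxia without SPP1. On the first, medium hypoxia without SPP1 replicate 1 and medium normoxia without SPP1 replicate 3 lay away from the other 9 medium libraries. Values without these libraries are given beside some of the results, and calls also changed in places where they are not given. Leaving out the 4 leaves 1 washed normoxia SPP1 library, and leaving out the 2 leaves 1 medium normoxia library without SPP1. Both sets were picked on the same log2 CPM, so a smaller spread without them follows in part from the choice. In bulk RNA fewer B cells and less RNA per B cell cannot be told apart. No table pairs the human IDs with symbols, so markers of T cells and macrophages were not applied, and the part of RNA from RAW264.7 cells in the cells and washed libraries was not tested.

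Capture decided what could be read, and 4 of the 10 members were poorly captured, with a mean under 10 counts per library. CD79B had 0 counts in all 37 libraries. At these totals 0 counts allow up to 3 counts, or 2.24 to 4.75 CPM depending on the library, and this limit covers counting error only. CD74 had 3 counts in all, 1 in naive replicate 1 and 2 in washed hypoxia SPP1 replicate 3. IKZF3 averaged 1.32 counts with a highest count of 8, and BANK1 averaged 3.95 with a highest count of 9. CD74 and CD79B are known as abundant transcripts of B cells, and no direction is read here from any of the 4 genes.

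The other 6 members passed the filter, with mean counts of 807.4 for PAX5, 602.9 for FOXP1, 467.8 for BCL11A, 270.6 for EBF1, 142.0 for BACH2 and 80.5 for CD79A. Each of them had counts in all 37 libraries, and the lowest was 2 counts of CD79A in washed normoxia SPP1 replicate 1. The members also differed in the length of the stretch of mouse transcript behind the coding part, near the end of which a 3′ library reads. Whether that length, or the match of mouse reads to the human gene, bears on capture was not tested. In GENCODE M21 the longest such stretch was 3266 to 6752 bases for EBF1, PAX5, BACH2, BCL11A and FOXP1. It was 469 bases for CD79B, 493 for CD74, 792 for BANK1 and 2087 for IKZF3, against 656 for CD79A, the only captured member in that range.

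**Figure D1:**
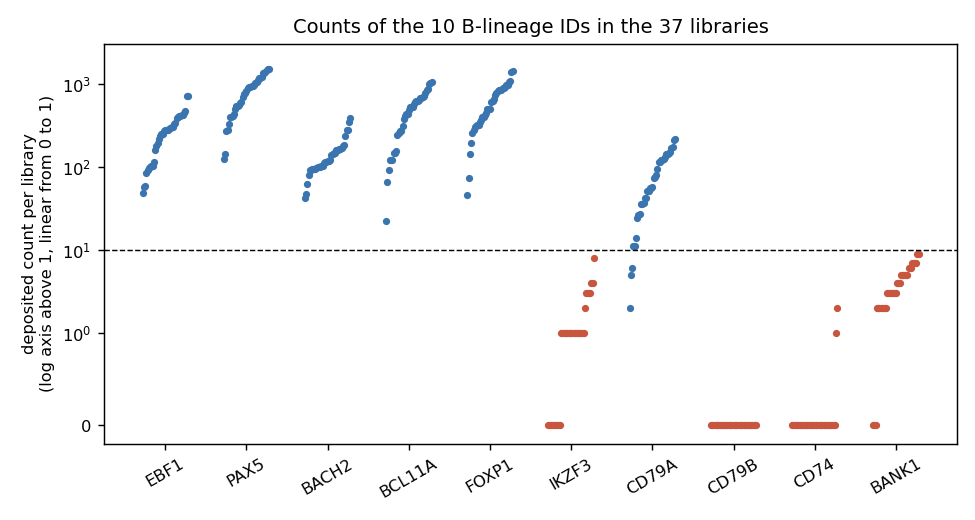
Deposited counts of the 10 B-lineage IDs, with 1 point per library (37 for each ID, sorted by count) on an axis that is logarithmic above 1 and linear from 0 to 1. The dashed line marks 10 counts, blue points are the 6 tested IDs and red points the 4 poorly captured ones, and all points of CD79B lie at 0.

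Across the 13 groups, 4 of the 6 tested members differed by edgeR's quasi-likelihood test with Benjamini-Hochberg adjustment over all 5193 IDs. Of all IDs tested, 53.6% did so. The adjusted p was 2.05e-08 for PAX5, 6.98e-08 for EBF1, 2.07e-05 for BACH2 and 0.0001 for BCL11A. It was 0.0712 for CD79A and 0.0728 for FOXP1, and without the 4 libraries apart on the second component these were 0.000829 and 0.000227. The tested members are taken below by their roles, each first by its values in the libraries and then by its comparisons, and called means an adjusted p below 0.05.

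**Figure D2:**
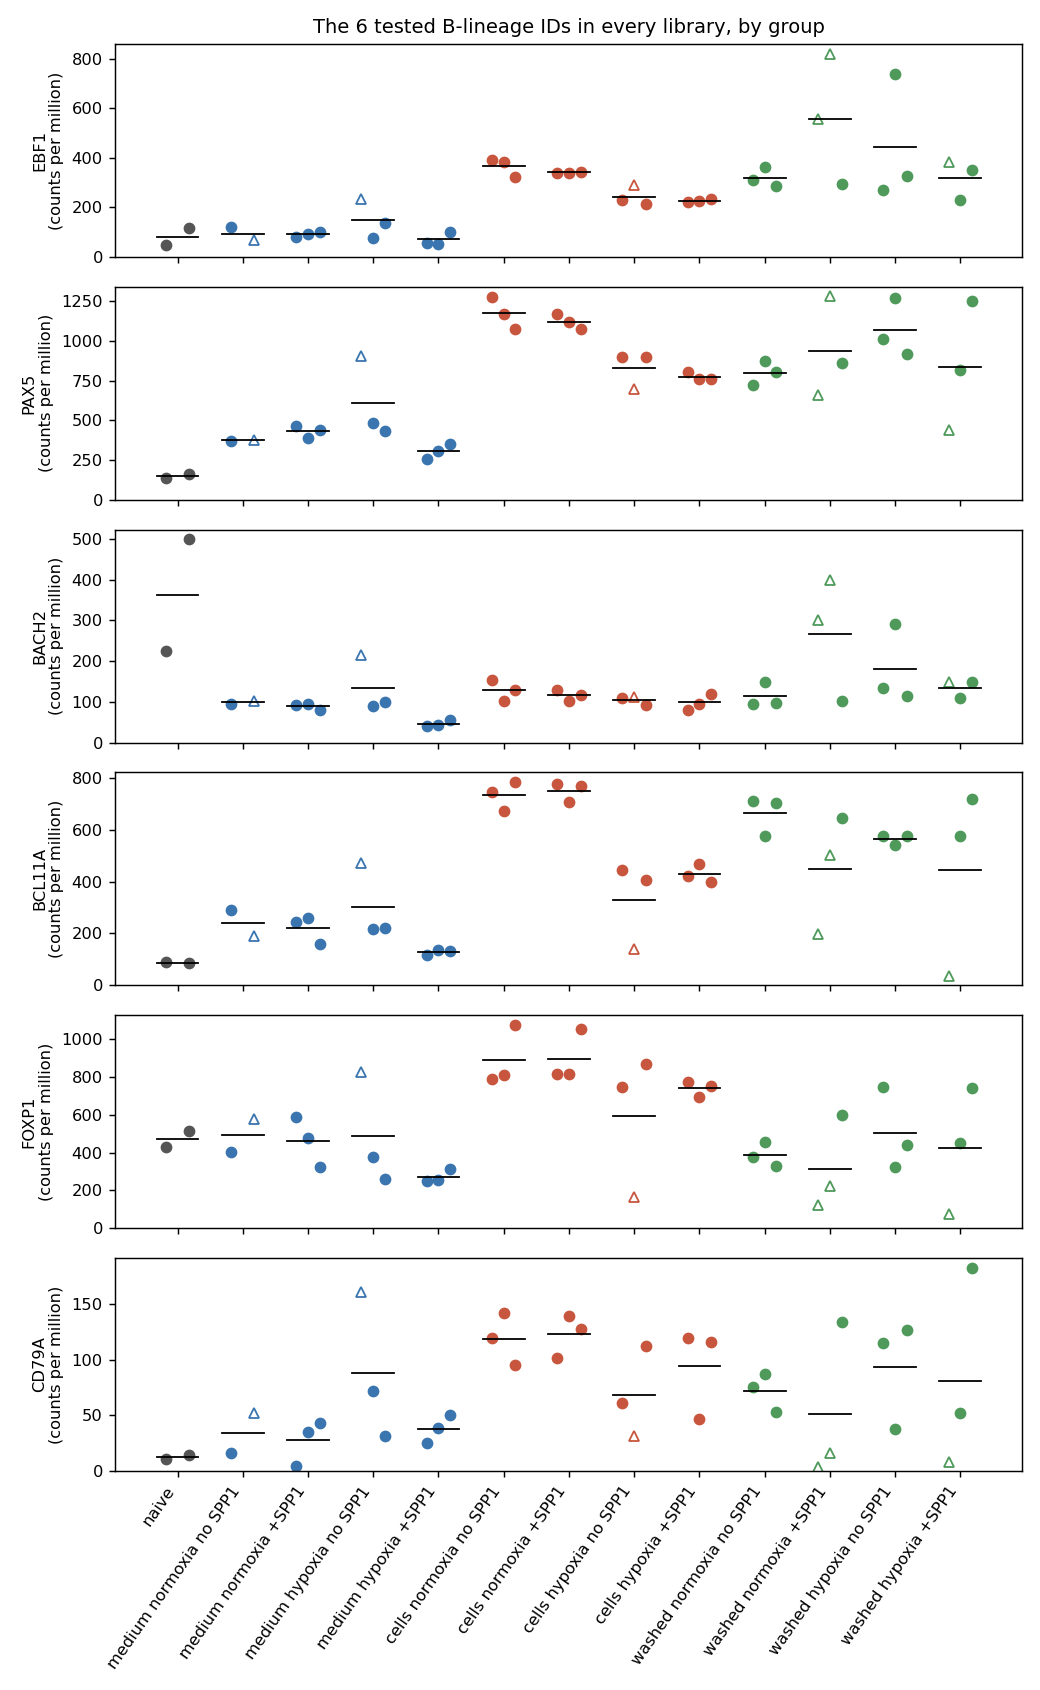
TMM-scaled CPM of the 6 tested members in every library, on linear axes from 0, by group. Points are libraries, lines are group means and open triangles are the 6 libraries that stood apart on principal components. EBF1 lay between 211.9 and 389.6 CPM in the cells libraries, while 10 of the 11 medium libraries had at most 137.4 CPM.

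The commitment factors EBF1 and PAX5 were higher in splenocytes that met RAW264.7 cells than in those that met only their medium. EBF1 had 46.8 and 117.2 CPM in the naive libraries. It ran from 52.7 to 234.3 CPM (median 91.6) in medium, from 211.9 to 389.6 CPM (median 307.2) in cells and from 228.6 to 819.9 CPM (median 339.5) in washed libraries. The lower naive value lay below and the higher one within the medium range, whereas every cells and washed library exceeded both naive libraries. Of the medium libraries only hypoxia without SPP1 replicate 1, at 234.3 CPM and apart on the first component, reached into the cells and washed ranges. The EBF1 level was 2.95-fold higher in cells than in medium groups (log2 fold change 1.56 ± 0.20 SE, adjusted p = 4.93e-08) and 4.08-fold higher in washed than in medium groups (log2 fold change 2.03 ± 0.20, adjusted p = 1.56e-10).

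PAX5, the factor that keeps B cells from other fates, had 137.6 and 161.5 CPM in the naive libraries. It ran from 259.2 to 906.5 CPM (median 391.3) in medium, from 695.5 to 1274 CPM (median 986.6) in cells and from 441.0 to 1282 CPM (median 868.5) in washed libraries. All 35 exposed libraries exceeded both naive ones. PAX5 was 2.79-fold higher in medium than in naive (adjusted p = 0.000192), 6.41-fold in cells (adjusted p = 6.06e-08) and 6.05-fold in washed groups (adjusted p = 9.75e-08). From medium to cells it was 2.30-fold higher (log2 fold change 1.20 ± 0.14, adjusted p = 1.54e-08), and from medium to washed 2.17-fold (log2 fold change 1.12 ± 0.14, adjusted p = 3.27e-08). The highest medium value, 906.5 CPM in hypoxia without SPP1 replicate 1, stood far above the next one of 482.8 CPM and lay among the cells libraries.

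CD79A, the captured subunit of the B cell receptor, had the fewest counts of the tested members and the widest spread. It stood at 10.7 and 14.3 CPM in the naive libraries. It ran from 4.75 to 161.1 CPM (median 38.8) in medium, from 31.6 to 142.0 CPM (median 114.0) in cells and from 3.31 to 182.4 CPM (median 64.2) in washed libraries. All cells libraries exceeded the naive ones, and 3 of the 5 lowest exposed values were those of the washed libraries apart on the second component, at 3.31, 8.05 and 16.2 CPM. CD79A was 2.34-fold higher in cells than in medium (log2 fold change 1.22 ± 0.39, adjusted p = 0.00928). The washed and medium groups differed by a log2 fold change of 0.81 ± 0.39 that was not called in the fit of all libraries (adjusted p = 0.072). This difference was called in the alternative fit with every ID with a count, and in 6 of 23 fits that left out 1 library. The log2 fold change was 1.25 without the 4 libraries apart on the second component, which hold the 3 low washed values given above. That fit leaves 1 washed normoxia SPP1 library.

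BCL11A, a factor of early B cell development, was, like PAX5, higher with RAW264.7 cells than with their medium. It had 84.7 and 89.8 CPM in the naive libraries, 116.1 to 471.7 CPM (median 216.5) in medium, 139.3 to 783.5 CPM (median 570.2) in cells and 35.4 to 718.5 CPM (median 576.6) in washed libraries. The single exposed library below the naive ones was washed hypoxia SPP1 replicate 1, at 35.4 CPM. BCL11A was 2.49-fold higher in cells than in medium (log2 fold change 1.31 ± 0.25, adjusted p = 5.21e-05) and 2.47-fold higher in washed than in medium (log2 fold change 1.30 ± 0.25, adjusted p = 3.91e-05). Its difference between medium and naive, 1.28 ± 0.51 on the log2 scale, was not called in the fit of all libraries (adjusted p = 0.0521). In alternative fits it was called with every ID with a count, with only the groups compared and with DESeq2. It was not called with RLE scaling or with the replicate number as a block, and 4 of 13 fits that left out 1 library called it. All medium libraries lay above both naive ones.

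BACH2, the repressor of plasma cell differentiation, was lower in all 3 modes than in the naive libraries. It had 225.5 and 500.2 CPM in the naive libraries, which differed from each other more than for any other tested member except EBF1. It ran from 40.6 to 215.8 CPM (median 92.7) in medium, from 79.7 to 154.3 CPM (median 111.5) in cells and from 95.3 to 400.1 CPM (median 140.4) in washed libraries. Every medium and cells library lay below both naive ones, while 3 washed libraries, at 292.1, 299.8 and 400.1 CPM, lay between them. The library at 292.1 CPM, washed hypoxia without SPP1 replicate 2, was not among the 4 libraries apart and stayed in the fits without them. It lay at -7.86 on the second component and had 737.5 CPM of EBF1 and 37.6 CPM of CD79A. BACH2 fell by 2.07 ± 0.30 on the log2 scale from naive to medium (4.19-fold lower, adjusted p = 3.37e-06), by 1.70 ± 0.30 to cells (adjusted p = 6.06e-05) and by 1.13 ± 0.31 to washed groups (adjusted p = 0.00502). Without naive replicate 2 the cells difference was -1.02 (adjusted p = 0.128) and the washed difference -0.43 (adjusted p = 0.571), neither called, and the medium difference was -1.40 (adjusted p = 0.0224). Without the 4 libraries apart on the second component, 3 of them washed, the washed difference of BACH2 was -1.44 ± 0.28.

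FOXP1 was higher in cells than in medium and in washed groups. It had 429.4 and 513.2 CPM in the naive libraries, 247.6 to 824.0 CPM (median 378.6) in medium, 166.3 to 1077 CPM (median 798.7) in cells and 74.0 to 745.2 CPM (median 409.1) in washed libraries. In 11 of the 12 cells libraries FOXP1 was at 694.6 CPM or more, above both naive values, and the exception was hypoxia without SPP1 replicate 2 at 166.3 CPM. FOXP1 was 1.85-fold higher in cells than in medium (log2 fold change 0.89 ± 0.26, adjusted p = 0.00578) and 1.91-fold lower in washed than in cells (log2 fold change -0.94 ± 0.26, adjusted p = 0.0209). None of its differences from naive was called in the fit of all libraries. The log2 fold changes were -0.18, 0.71 and -0.23 in medium, cells and washed groups. The difference between cells and naive was called in the alternative fit with every ID with a count. Without the 4 libraries apart on the second component, which include that cells library at 166.3 CPM, the difference of FOXP1 between cells and naive was 0.87.

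Set against the naive libraries, the tested members called were 2 of 6 in medium (PAX5 higher, BACH2 lower), where 32.4% of all IDs tested were called. They were 5 of 6 in cells, where 27.3% of all IDs were called, and 5 of 6 in washed groups, where 34.5% were. The ranges of naive and exposed libraries did not overlap for 3 of the 6 members in medium, 5 in cells and 2 in washed libraries, and for 29.8%, 27.7% and 26.9% of all IDs tested. In cells and in washed groups, EBF1, PAX5, BCL11A and CD79A were higher and BACH2 was lower. The median log2 fold change of the 6 was 0.77 in medium, 2.21 in cells and 2.43 in washed groups, against 0.11, 0.04 and 0.04 over all IDs. These comparisons rest on 2 naive libraries, and CD79A lost its calls when either was left out (adjusted p from 0.108 to 0.162), with the remaining naive library taken to vary like the other groups. In a fit of the washed and naive libraries alone CD79A was not called either (adjusted p = 0.0805).

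Set against medium, 5 of the 6 tested members were higher in cells (EBF1, PAX5, BCL11A, FOXP1 and CD79A) and 4 in washed groups (EBF1, PAX5, BCL11A and BACH2). The same comparisons called 48.7% and 58.7% of all IDs tested. The median log2 fold change of the 6 was 1.21 in cells and 1.02 in washed groups, against -0.02 and -0.03 over all IDs. Of all IDs, 97.6% had a lower log2 fold change than EBF1 in cells and 94.1% a lower one than PAX5. BACH2 had a log2 fold change of 0.37 ± 0.19 in cells (adjusted p = 0.118), which was called in the fit of the groups compared alone. In washed groups it was 0.93 ± 0.20 (adjusted p = 0.000119), and it shrank to 0.55 without the 4 libraries apart on the second component.

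Between washed and cells groups 1 of the 6 members, FOXP1, was called, and 7.24% of all IDs were. PAX5 and BCL11A differed by -0.08 ± 0.13 and -0.01 ± 0.24 on the log2 scale. EBF1 (0.47 ± 0.18, adjusted p = 0.102) and BACH2 (0.56 ± 0.19, adjusted p = 0.0578) were not called, and without the 4 libraries apart their differences were 0.24 and 0.21. The FOXP1 call was lost without cells hypoxia without SPP1 replicate 3 (log2 fold change -0.84, adjusted p = 0.0535).

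**Figure D3:**
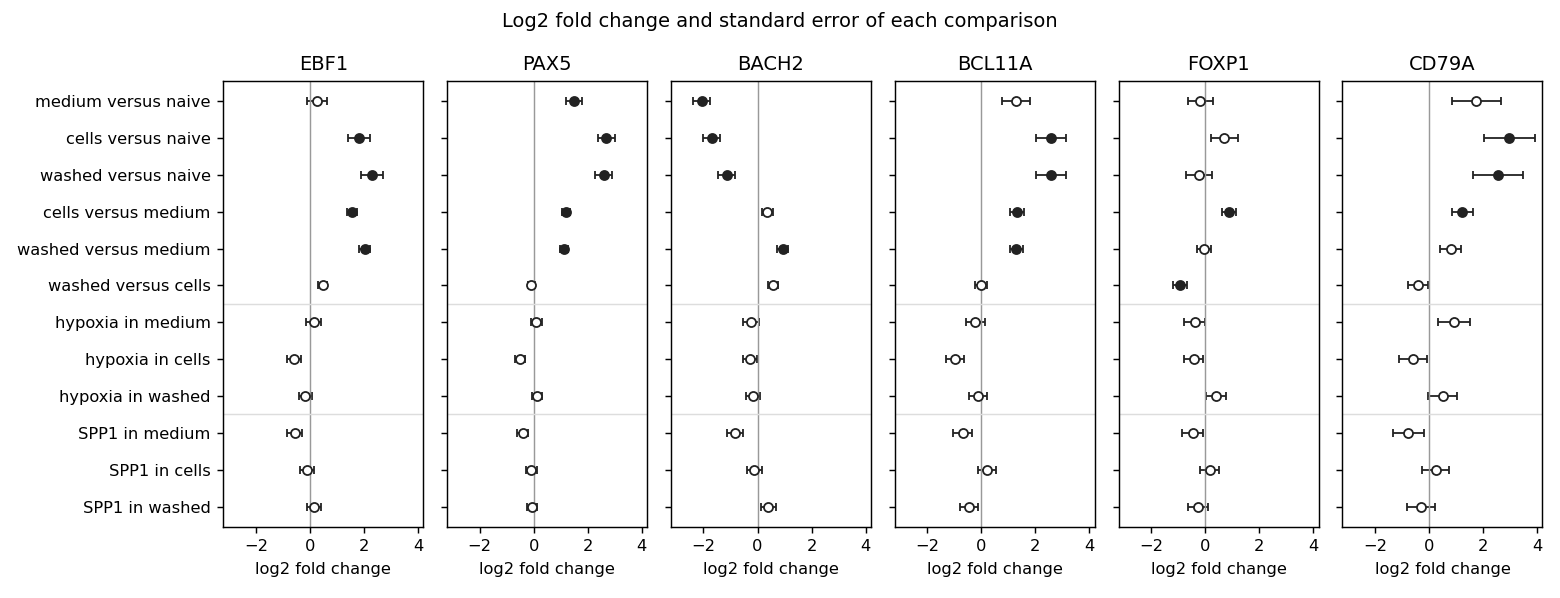
Log2 fold change of each tested member in 12 comparisons, with bars of 1 standard error either side. Filled points had an adjusted p under 0.05 and open points did not. PAX5 was 2.68 higher in cells than in naive, BACH2 was the only member called lower than naive, and no point of the oxygen or SPP1 comparisons is filled.

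The oxygen that the RAW264.7 cells had been kept in separated the cells libraries for 3 members. The 6 hypoxia libraries of the cells groups lay below the 6 normoxia libraries, with no overlap, for BCL11A, EBF1 and PAX5. BCL11A ran from 139.3 to 469.4 CPM (median 413.8) in hypoxia and from 670.9 to 783.5 CPM (median 756.0) in normoxia. EBF1 ran from 211.9 to 290.4 CPM (median 227.4) in hypoxia and from 324.0 to 389.6 CPM (median 342.5) in normoxia. PAX5 ran from 695.5 to 900.0 CPM (median 780.9) in hypoxia and from 1073 to 1274 CPM (median 1144) in normoxia. Of all IDs tested, 4.62% did not overlap between these libraries in either direction, and 3 of the 6 tested members did not.

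None of the 6 passed the test for hypoxia in cells in the fit of all 37 libraries, which called 3.62% of all IDs. The log2 fold change was -0.98 ± 0.34 for BCL11A (adjusted p = 0.0991), -0.52 ± 0.19 for PAX5 (adjusted p = 0.128) and -0.58 ± 0.26 for EBF1 (adjusted p = 0.219). These 3 had an unadjusted p under 0.05 in edgeR, and in DESeq2 0 members were called and 3 had an unadjusted p under 0.05. A fit of the 12 cells libraries alone, which called 6.90% of 4101 IDs, called all 3: BCL11A by -0.96 ± 0.20 (adjusted p = 0.00791), EBF1 by -0.55 ± 0.14 and PAX5 by -0.49 ± 0.12 (adjusted p = 0.0237 for both). Without the 4 libraries apart on the second component, 1 of which was a hypoxia library, the difference was -0.78 ± 0.17 for BCL11A and was called (adjusted p = 0.00615).

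The other 3 members overlapped between the oxygen levels in cells. FOXP1 ran from 166.3 to 868.2 CPM in hypoxia and from 789.6 to 1077 CPM in normoxia. CD79A ran from 31.6 to 119.6 CPM in hypoxia and from 94.7 to 142.0 CPM in normoxia, and BACH2 from 79.7 to 120.5 and from 102.0 to 154.3 CPM. Their log2 fold changes were -0.43 ± 0.36, -0.58 ± 0.51 and -0.27 ± 0.26, and none of these 3 was called in any of the alternative fits.

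In medium and washed groups the oxygen levels overlapped for every tested member. Of all IDs tested, only 0.674% in medium and 0.385% in washed groups did not overlap. By edgeR 0 of 6 members were called there, where 0.077% and 0.0385% of all IDs were. No member had an unadjusted p under 0.05 there, in edgeR or in DESeq2. The log2 fold changes ran from -0.39 (FOXP1) to 0.93 (CD79A) in medium and from -0.16 (EBF1) to 0.50 (CD79A) in washed groups. The hypoxia effect itself was not shown to differ between modes. For the effect in cells minus that in medium, edgeR called 0 of 6 members and 0.481% of all IDs, and for washed minus cells 0 of 6 and 0.173%. PAX5 alone had an unadjusted p under 0.05 in both of these tests, and DESeq2 called none. For washed minus medium 0 of 6 members and 0% of IDs were called, with no unadjusted p under 0.05.

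SPP1 in the RAW264.7 culture gave no call for any tested member. In medium all 6 log2 fold changes were negative, from -0.40 ± 0.20 (PAX5) to -0.83 ± 0.28 (BACH2, adjusted p = 0.347), and 0.25% of all IDs were called. BACH2 was the 1 member with an unadjusted p under 0.05, by edgeR and by DESeq2. The differences rested in part on the 2 medium libraries without SPP1 that stood apart on the first component. Without them PAX5 differed by -0.17, CD79A by 0.19 and FOXP1 by 0.00 on the log2 scale, and BACH2 by -0.53.

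Within medium, the 3 libraries of hypoxia with SPP1 held low values. BACH2 was at 40.6, 43.4 and 55.7 CPM there, against 80.6 to 215.8 CPM in the other 8 medium libraries. PAX5 was at 259.2, 305.0 and 353.0 CPM, against 371.8 to 906.5 CPM, and BCL11A at 116.1, 134.9 and 131.1 CPM, against 158.2 to 471.7 CPM. These 3 members did not overlap with the other 8 libraries, as did 4.27% of all IDs tested, and this group was singled out after its values were seen. EBF1, FOXP1 and CD79A overlapped. The interaction of SPP1 and oxygen in medium was negative for all 6 members, from -0.76 ± 0.77 (FOXP1) to -1.39 ± 0.57 (BACH2) on the log2 scale. By edgeR 0 of 6 were called, as were 0% of all IDs, with an adjusted p of at least 0.915, and PAX5 and BACH2 had an unadjusted p under 0.05 in edgeR and in DESeq2, which called neither. Without the 2 medium libraries apart on the first component, which leaves 1 normoxia library without SPP1, the interaction was -0.85 ± 0.47 for PAX5, -0.98 ± 0.64 for BACH2, -0.44 ± 0.85 for BCL11A and -0.26 ± 0.61 for EBF1.

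In cells the log2 fold changes with SPP1 lay between -0.11 (BACH2) and 0.25 (CD79A), and 0% of all IDs were called. In washed groups they lay between -0.45 (BCL11A) and 0.40 (BACH2), with 0.0193% of all IDs called. No member was called or had an unadjusted p under 0.05 in these 2 tests, by either tool. The differences of the SPP1 effect between modes and the interactions in cells and washed groups called 0 of 6 members and 0% of all IDs in edgeR. An unadjusted p under 0.05 was seen for BACH2 in the SPP1 effect of washed minus medium, and for EBF1 and BACH2 in the interaction in washed groups. The interaction was -1.27 ± 0.51 for EBF1 and -1.64 ± 0.53 for BACH2 on the log2 scale, and -0.54 ± 0.57 and -0.38 ± 0.57 without the 4 libraries apart on the second component, which leaves 1 washed normoxia SPP1 library. The SPP1 effect of washed minus medium was 1.24 ± 0.39 for BACH2, fell to 0.51 ± 0.37 without those 4 libraries, and was called without washed normoxia SPP1 replicate 3.

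The washed normoxia SPP1 group shows how far replicates of 1 group could differ. Its libraries had 299.8, 400.1 and 101.7 CPM of BACH2 and 555.0, 819.9 and 292.5 CPM of EBF1. The same libraries had 120.9, 222.0 and 597.6 CPM of FOXP1 and 3.31, 16.2 and 133.5 CPM of CD79A. Replicate 3 was the lowest for the first pair of genes and the highest for the second. Washed hypoxia SPP1 replicate 1, also apart on the second component, had 35.4 CPM of BCL11A and 74.0 CPM of FOXP1, the lowest of all 37 libraries for both. Its PAX5, at 441.0 CPM, was the lowest of the washed libraries. Cells hypoxia without SPP1 replicate 2 had the lowest BCL11A, FOXP1, CD79A and PAX5 of the cells libraries, at 139.3, 166.3, 31.6 and 695.5 CPM, while its EBF1, at 290.4 CPM, was the highest of the 6 hypoxia libraries in cells. In these 4 libraries EBF1 ran from 290.4 to 819.9 CPM and BACH2 from 112.4 to 400.1 CPM.

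Ratios between members within a library do not depend on how libraries are scaled. They are ratios of captured reads and not of transcript levels, and are given with no test. There were 0.323 and 0.610 PAX5 reads for each BACH2 read in the naive libraries. The ratio was 3.69 to 7.02 in medium, 6.19 to 11.5 in cells and 2.19 to 8.48 in washed libraries, so all 35 exposed libraries lay above both naive ones. The lowest 3 of the exposed values, 2.19, 2.95 and 3.21, were those of the 3 washed libraries apart on the second component, and the other 9 washed libraries ran from 4.34 to 8.48. FOXP1 reads for each PAX5 read were 3.12 and 3.18 in the naive libraries and 0.168 to 1.52 in the exposed ones, again with no overlap. EBF1 reads for each PAX5 read, 0.340 and 0.726 in naive and 0.156 to 0.865 in exposed libraries, overlapped. So did CD79A reads for each PAX5 read, at 0.0780 and 0.0887 in naive and 0.00505 to 0.178 in exposed libraries. BCL11A reads for each PAX5 read, 0.652 and 0.524 in naive and 0.0803 to 0.986 in exposed libraries, overlapped too. PAX5 and BACH2 had been called in opposite directions against naive, and PAX5 alone was already higher in every exposed library than in both naive ones. The ratios of PAX5 to BACH2 and of FOXP1 to PAX5 therefore restate these differences in part. The share of other pairs of IDs without overlap was not computed.

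**Figure D4:**
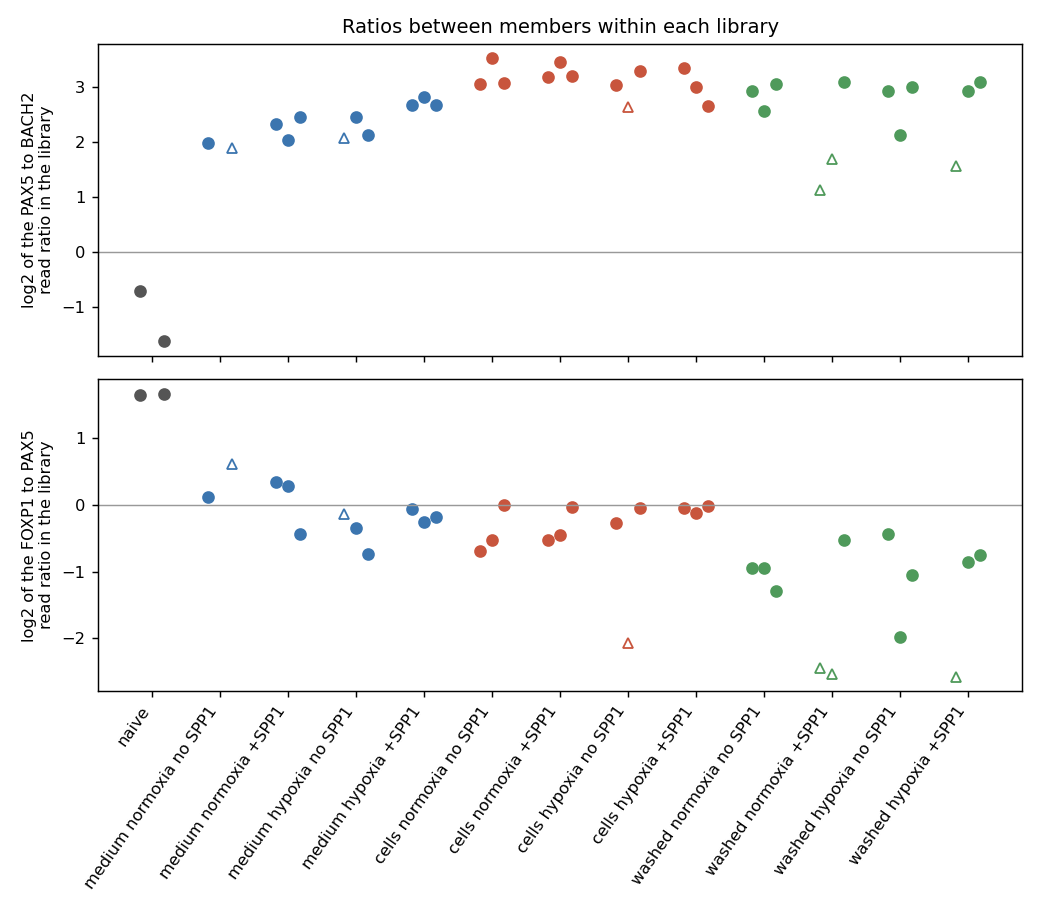
Log2 of the read ratio of PAX5 to BACH2 (top) and of FOXP1 to PAX5 (bottom) in each library, by group. Points are libraries, open triangles are the 6 libraries that stood apart on principal components, and the grey line marks equal reads. The naive libraries lie at -1.63 and -0.71 in the top panel, below all exposed libraries, and at 1.64 and 1.67 in the bottom panel, above all of them.

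Ordered by mean level, most neighbouring groups overlapped. Of the 12 pairs of neighbours in the order of the 13 groups, 12 overlapped for EBF1 and for CD79A, 11 for BACH2 and for FOXP1, 10 for BCL11A and 9 for PAX5. The same counts over all IDs tested were not computed, so these are a description and not a trait of the members. PAX5 was highest in cells normoxia without SPP1 (1173 ± 99.6 CPM, SD, n = 3), and its order ended with medium hypoxia SPP1 (305.7 ± 46.9 CPM, n = 3) and naive (149.6 ± 16.9 CPM, n = 2), which overlapped with no neighbour. EBF1 was highest in washed normoxia SPP1 (555.8 ± 264 CPM, n = 3) and lowest in medium hypoxia SPP1 (70.7 ± 27.5 CPM, n = 3). BACH2 was highest in naive (362.8 ± 194 CPM, n = 2) and lowest in medium hypoxia SPP1 (46.6 ± 8.01 CPM, n = 3). CD79A ran from 123 CPM in cells normoxia SPP1 to 12.5 CPM in naive.

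Likeness to CD79A over the 37 libraries was read from log2 CPM, as a description of libraries that share groups and scaling. Among 2854 IDs with a mean log2 CPM of at least 4, the most alike outside the list were ENSG00000117143 (Pearson r = 0.830) and ENSG00000211899 (r = 0.818), for which no table pairs a symbol. Of the members, FOXP1 (r = 0.698), BCL11A (r = 0.696) and PAX5 (r = 0.606) were nearest to CD79A. EBF1 (r = 0.266) and BACH2 (r = -0.255) were not like it.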

How the data were processed

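Libraries were made from splenocyte RNA with a QuantSeq 3′ kit, which primes on the polyA tail. Per the series text, the authors trimmed reads with bbduk, used STAR 2.7.10b for the alignment to GRCh38, and made gene counts by featureCounts (Rsubread 2.0.3). The authors deposited raw counts. Use of strand and molecular identifiers in the counting was not given in the sources used here, and a count may include PCR copies. Labels require an RNA integrity above a minimum and quote a range that reaches below it. A gene that is near-identical to a paralog, and mouse reads that fit another human gene, make each ID uncertain. The labels do not say that the replicates of a group came from separate mice, so p-values measure the spread between these samples.

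Counts were analysed as deposited in R 4.3.3 with edgeR 4.0.16 (filterByExpr with a minimum count of 10, TMM, 1 mean per group, all 37 libraries, quasi-likelihood F test, Benjamini-Hochberg adjustment over 5193 IDs, which held 97.8% to 99.4% of the counts). Standard errors came from the F statistic, and mode, oxygen and SPP1 effects average the groups with equal weight. The fit was tested on simulated counts. log2 CPM values for components and likeness used a prior count of 2. Alternatives were DESeq2 1.42.0, RLE scaling, no filter beyond a count in any library, the replicate number as a block, a fit of the compared groups alone, and leaving out libraries. All 10 members were named, and the 2 other IDs most like CD79A. The members and lists were chosen with earlier results of these data known. Lists of B cell, T cell and macrophage markers by symbol were not used, since no table used here pairs human IDs with symbols.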

Additional observations from a re-analysis of the deposited data

How the results depend on the processing

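The number of tested members called changed by over 1.5 times in few of the alternatives. For medium versus naive it was 4, against 2, with every ID with a count and also without the 4 libraries apart on the second component, since BCL11A and CD79A were added. For hypoxia in cells it was 0 in the fit of all libraries, 3 with only the groups compared, 1 with every ID with a count and 1 without those 4 libraries. For washed versus cells it was 1 in the fit of all libraries, and 2 without the 2 medium libraries apart on the first component and with DESeq2, which added BACH2. Leaving out 1 library at a time gave 3 to 5 for cells versus naive and 3 to 5 for washed versus naive, 0 to 3 for washed versus cells and 0 to 1 for the SPP1 effect in washed minus medium. No called log2 fold change of a member was reversed in any alternative. The cause of these changes was not tested. Libraries with equal replicate numbers did not deviate together (mean correlation 0.009 over 210 pairs, against -0.0043 over 421 pairs of unequal numbers), and with the replicate block 5 members were called in cells versus medium and 4 in washed versus naive, where CD79A was lost. RLE scaling moved the median log2 fold change of all IDs by -0.11 in cells and washed against naive, and changed no count of members called by over 1.5 times. At a median of 1063211 counts per library, CD79A, with as few as 2 counts in a library, carries wide counting error. Differences of the 4 poorly captured members could not be read from their counts, and whether depth bears on their capture was not tested.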
